A study of Mus musculus with 4 samples.

Results

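Matrix metalloproteinases (MMPs) are zinc-dependent enzymes that cut proteins of the extracellular matrix, and tissue inhibitors of metalloproteinases (TIMPs) bind their active sites and block them. The family was followed through 10 genes, the proteases Mmp2, Mmp8, Mmp9, Mmp12, Mmp13, Mmp14, Mmp19 and Mmp25 and the inhibitors Timp1 and Timp2. All 10 had values among the 14323 gene symbols of the table, and 9 passed the filter on low values, which asks that the 4 libraries average 1 normalized count or more. Timp1 did not pass.

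RNA-seq was made from colonies of C57BL/6 mouse blood progenitors, either short-term haematopoietic stem cells (ST-HSC), which rebuild blood for a limited time, or MPP2 cells, a multipotent progenitor biased to the megakaryocyte and erythroid lineages. From each kind, 100 cells grew for 5 to 7 days in 1% methylcellulose with SCF at 25 ng/ml and IL-6, IL-3 and GM-CSF at 10 ng/ml each, with either 0.05 µM 4-hydroxytamoxifen (4OHT, the active form of tamoxifen) in ethanol or ethanol alone. All cells came from the study's model mouse, in which 4OHT is described as switching on the leukaemia fusion MLL-ENL, and the ethanol colonies are labelled as controls. The promoter and cells that drive the conditional allele, and the number of mice behind each library, were not stated in the labels. The 4 groups were thus ST-HSC colonies with ethanol or with 4OHT and MPP2 colonies with ethanol or with 4OHT, with 1 library each and 12907412 to 14317891 reads recovered per library. No group received 4OHT without the allele, so 4OHT and the fusion cannot be told apart here.

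The gelatinases Mmp2 and Mmp9 digest denatured collagen and basement membrane. Mmp14 spans the cell membrane and, with Timp2 as a bridge, activates the secreted precursor of Mmp2, while Mmp25 is held at the surface of leukocytes by a lipid anchor. Mmp8 is the neutrophil collagenase stored in granules, Mmp13 is a collagenase of bone and macrophages, Mmp12 is the macrophage elastase, and Mmp19 is a broad matrix protease of myeloid and other cells. In marrow, Mmp9 is known for freeing stem cells by releasing membrane-bound SCF.

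Genes of maturing myeloid cells were abundant in all 4 libraries, so the values describe the colonies and not the plated cells. The granule enzyme gene Mpo stood between 1971 and 4549 normalized counts and the myeloid lysozyme gene Lyz2 between 1113 and 2768, while Kit, the SCF receptor of stem and mast cells, stood between 76.4 and 92.9. Summed macrophage markers (13 of 14 with values) stood at 1484, 2746, 2334 and 4146 normalized counts, given in the order ST-HSC with ethanol and with 4OHT, then MPP2 with ethanol and with 4OHT. Lyz2, at 1113, 1924, 1692 and 2768, made up most of that sum in every library. The complement genes C1qb and C1qc were at 0 reads in MPP2 ethanol. Summed neutrophil markers (11 of 12) stood at 30680, 22596, 42950 and 41732 in the same order. Summed stromal and endothelial markers (6 of 11) stood at 87.0, 80.1, 172.8 and 125.2, of which Pecam1, shared with blood cells, made up most. The fibroblast receptor gene Pdgfra was at 0 in both ST-HSC libraries. This order is kept wherever 4 values follow one another.

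Mmp13, Mmp12 and Mmp8 sit together on chromosome 9, in a cluster of 10 MMP genes that spans 7272514 to 7699585 on GRCm38, or 427 kb. Of the other 7 genes in that cluster, Mmp10 and Mmp27 had values, both under 1 normalized count in every library, and the rest were not analysed here. Mmp13 and Mmp12 are next to each other, 61050 bases apart. The remaining members are scattered, with Mmp2 on chromosome 8, Mmp9 on 2, Mmp14 on 14, Mmp19 on 10, Mmp25 on 17, Timp1 on X and Timp2 on 11.

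Promoter windows from RefSeq (build GRCm38.p6) were found for 7 of the 10 genes, running from 250 bases before to 50 after a start. Those below stop 30 bases after it. They are shown because Mmp13 and Mmp12 differed with 4OHT in the same way, Mmp14 differed in another way, and Mmp25 and Timp2 were both higher in MPP2 colonies. Capitals mark the AP-1 motif TGANTCA, the TATA motif TATAAA, the SP1 motif GGGCGG and the ETS motif AGGAAG, each searched on both strands. On the other strand TATAAA reads TTTATA. The SP1 motif reads CCGCCC there. The ETS motif reads CTTCCT, and the AP-1 motif is its own reverse. No 2 of these motifs overlap in the windows printed.
Mmp13, chr9:7272264-7272543, plus strand: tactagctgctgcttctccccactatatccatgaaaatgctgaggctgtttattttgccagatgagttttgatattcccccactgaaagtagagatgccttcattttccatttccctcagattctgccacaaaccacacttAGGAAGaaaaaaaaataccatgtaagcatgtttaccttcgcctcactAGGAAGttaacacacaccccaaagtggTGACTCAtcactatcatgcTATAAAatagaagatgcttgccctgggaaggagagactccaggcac
Mmp12, chr9:7347124-7347403, plus strand: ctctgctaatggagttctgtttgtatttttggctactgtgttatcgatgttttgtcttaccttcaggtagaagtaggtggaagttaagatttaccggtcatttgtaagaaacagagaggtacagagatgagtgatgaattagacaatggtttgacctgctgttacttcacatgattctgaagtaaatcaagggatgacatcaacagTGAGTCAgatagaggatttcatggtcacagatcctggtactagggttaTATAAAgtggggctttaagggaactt
Mmp14, chr14:54431348-54431627, plus strand: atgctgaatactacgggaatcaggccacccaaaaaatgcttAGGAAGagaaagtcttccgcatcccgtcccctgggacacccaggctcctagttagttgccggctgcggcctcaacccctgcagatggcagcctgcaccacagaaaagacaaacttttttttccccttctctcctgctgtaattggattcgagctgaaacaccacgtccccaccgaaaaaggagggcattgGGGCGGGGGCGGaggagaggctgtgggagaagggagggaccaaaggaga
Mmp25, chr17:23645240-23645519, minus strand: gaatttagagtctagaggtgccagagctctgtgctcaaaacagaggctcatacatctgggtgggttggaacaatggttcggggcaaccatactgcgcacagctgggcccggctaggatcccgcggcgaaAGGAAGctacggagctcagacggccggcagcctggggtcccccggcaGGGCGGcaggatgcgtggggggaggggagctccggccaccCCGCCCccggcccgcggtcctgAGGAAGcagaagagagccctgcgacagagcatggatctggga
Timp2, chr11:118355382-118355661, minus strand: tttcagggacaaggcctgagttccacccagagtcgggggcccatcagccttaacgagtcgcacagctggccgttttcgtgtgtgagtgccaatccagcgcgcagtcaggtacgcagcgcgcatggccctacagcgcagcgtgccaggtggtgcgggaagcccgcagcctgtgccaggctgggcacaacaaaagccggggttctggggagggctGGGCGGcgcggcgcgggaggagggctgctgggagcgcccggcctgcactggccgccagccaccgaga
The Mmp13 window held TGACTCA with its first base at -35 and TATAAA at -16, counted from the RefSeq start. The window of Mmp12 shown, the downstream of its 2 RefSeq starts, held TGAGTCA at -44 and TATAAA at 5, which lies after the start. The upstream window, chr9:7344147-7344426, is not printed and contains the start of the gene in GENCODE, at 7344381. Neither motif was in the windows of Mmp14, Mmp25, Timp1 or Timp2, nor in the upstream window of Mmp12, while Mmp8 held TTTATA at -3 and no TGANTCA. Over all 32817 windows of that length, 7.81% held TGANTCA and 13.6% held TATAAA. The SP1 motif was in the windows of Mmp14, Mmp25, Timp1 and Timp2 and in none of those of Mmp8, Mmp12 and Mmp13, against 35.6% of all windows. AGGAAG or its reverse was in at least 1 window of every matched member but Timp2, against 35.4%. These are matches of letters and describe no binding.

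Per kilobase of merged exons, Mmp8 was the most abundant member in every library. Mmp12 came next in 3 of the 4, while in ST-HSC ethanol Mmp19, at 13.2, lay above Mmp12, at 11.02. The mean over the 4 libraries was 54.9 normalized counts per kilobase for Mmp8 (38.3 to 67.2) and 25.6 for Mmp12 (11.02 to 33.7), ranges that did not overlap. Together they made up 73.5%, 76.5%, 80.1% and 69.8% of the summed MMP level per kilobase. Below them came Mmp19 (11.2), Timp2 (8.65), Mmp2 (5.30), Mmp9 (4.48), Mmp25 (2.999), Mmp14 (1.93) and Mmp13 (1.31), where the range of each over the libraries overlapped that of its neighbour in the order, as did those of Mmp12 and Mmp19. Timp1 was last at 0.249. Its highest value, 0.486 from 6 reads, lay just under the lowest of Mmp13, 0.494 from 19 reads, a gap not clear of counting error. By the longest transcript in place of merged exons, Mmp12 stood at 41.4 and Mmp14 at 3.55 per kilobase, with Mmp14 above Mmp25 at 3.51. On that scale the range of Mmp12 (17.8 to 54.5) overlapped that of Mmp8 (38.3 to 67.2), and in ST-HSC ethanol Mmp12, at 17.8, lay above Mmp19, at 13.7.

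**Figure D1:**
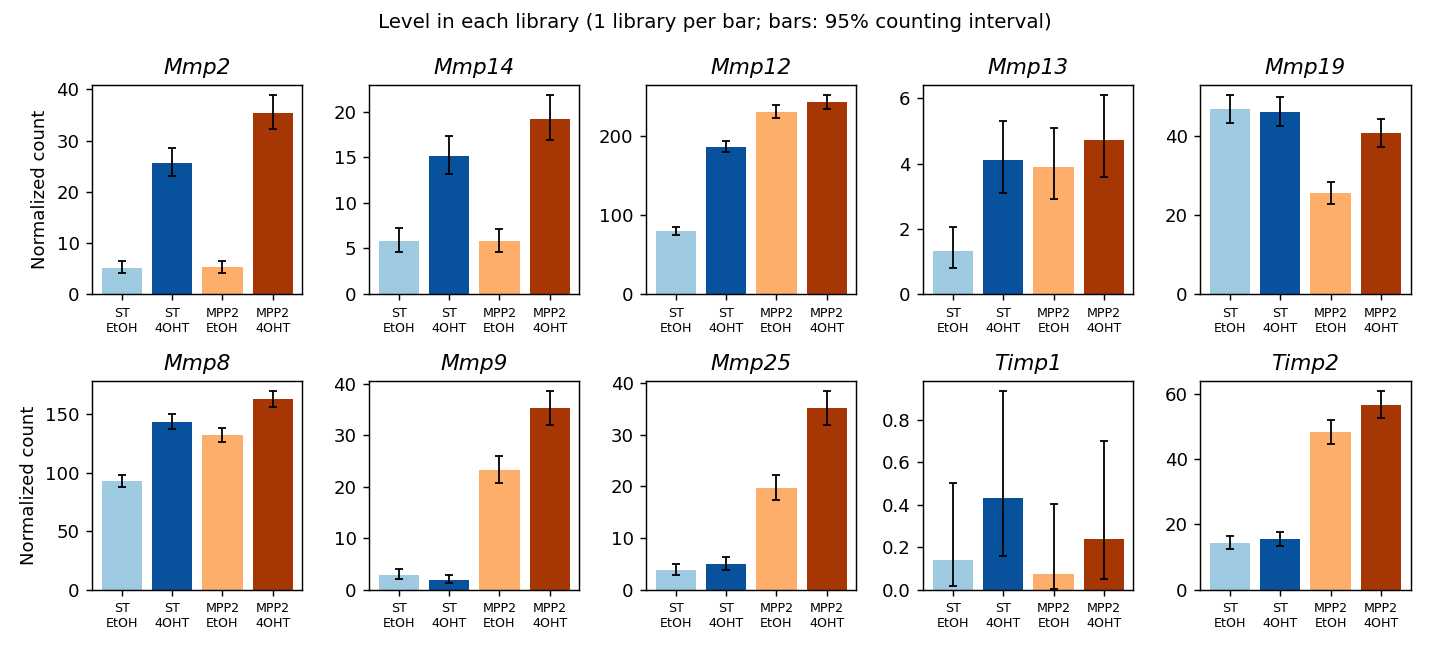
Normalized counts (y axis) of the 10 genes in the 4 libraries (x axis), with 1 library per bar and 95% counting intervals as error bars. Mmp2 and Mmp14 stand high in both 4OHT libraries, Mmp9, Mmp25 and Timp2 in both MPP2 libraries, and Mmp12 and Mmp13 low in ST-HSC ethanol alone.

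Mmp2 was the member with the largest 4OHT difference, and Mmp14 was the only other member past 2-fold in both kinds of colony. In ST-HSC colonies Mmp2 stood at 5.15 normalized counts without 4OHT and 25.7 after it, and in MPP2 colonies at 5.195 and 35.5. Both ethanol libraries were level with each other, at 74 and 72 reads, and both 4OHT libraries lay far above them, at 357 and 442. The ratio of 4OHT to ethanol was 4.99 in ST-HSC colonies (95% counting interval 3.87 to 6.49) and 6.83 in MPP2 colonies (5.31 to 8.88). Ordered by log2 difference, Mmp2 was number 33 of 11370 tested genes in ST-HSC colonies and number 1 in MPP2 colonies.

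In the fit of the effect shared by both kinds of colony, Mmp2 rose by 2.43 on the log2 scale (SE 0.161, limma with terms for treatment and cell type, adjusted p = 0.0477), higher in 2 of 2 pairs. Log2 values were taken after adding 0.5, which shrinks differences of low genes. Of all 11370 genes tested, 5 were called higher (0.0440%) and 1 lower (0.00880%), all 6 at that same adjusted p. Among the 9 members, 1 was called higher and 0 lower. At an unadjusted p under 0.05 the counts were 5 higher and 0 lower, where 14.2% of all genes passed in either direction. In edgeR 3 members were called higher and 0 lower, against 281 and 211 of all 11370 genes. In DESeq2 the members called were 2 and 0, against 114 and 40 of all genes. The call of Mmp2 was lost with an added constant of 0.1 (adjusted p = 0.136), without the filter (0.201), with DESeq2 size factors (0.0932) and with the GC trend removed (0.202), with log2 values of 2.32 to 2.52 in those fits.

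Mmp14, whose protein activates the Mmp2 precursor, had 5.84, 15.2, 5.77 and 19.3 normalized counts. It had the same outline as Mmp2, with ethanol libraries level at 84 and 80 reads and both 4OHT libraries above them. Its ratio was 2.60 in ST-HSC colonies (2.01 to 3.38), and MPP2 colonies gave 3.34 (2.58 to 4.35). The shared log2 difference was 1.48 (SE 0.149) and missed the threshold in limma (adjusted p = 0.0779). It passed with an added constant of 1 (adjusted p = 0.0379), with genes of a mean of at least 5 (0.00517), with a mean-variance trend (2.61e-04), in edgeR (0.00132) and in DESeq2 (0.00294), and missed it in the other 4 alternatives. The MPP2 ratio over the ST-HSC ratio was 1.37 for Mmp2 (counting interval 0.962 to 1.95) and 1.28 for Mmp14 (0.899 to 1.84). A difference between the cell types was thus not clear of counting error, and with 1 library per group it cannot be tested.

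The count behind these values comes from whole colonies, where fewer cells of a type and less RNA per cell cannot be told apart. Macrophage markers were also higher in the 4OHT libraries. Their summed level was 2746 and 4146 normalized counts in the 4OHT libraries against 1484 and 2334 with ethanol, most of it Lyz2. Of 11 tested markers, 11 were above 0 in ST-HSC and 10 in MPP2 colonies, against 5605 and 5652 of all 11370 tested genes. The part of the macrophage markers in the MMP differences was not tested. The gene nearest to Mmp14 in pattern over the 4 libraries was Mrc1, the mannose receptor of macrophages, at 30.04, 83.3, 32.6 and 99.2 (distance 0.119 in centred log2 values). That pair was picked after its values were seen.

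Mmp12 and Mmp13 were past 2-fold in ST-HSC colonies and not in MPP2 colonies. Mmp12 had 79.8, 187, 231 and 244 normalized counts, so ST-HSC ethanol was low and the other libraries were within 1.31-fold of one another. Mmp13 had 1.32, 4.10, 3.90 and 4.73, from 19, 57, 54 and 59 reads, with the same library low. The 4OHT ratio in ST-HSC colonies was 2.34 for Mmp12 (2.18 to 2.51) and 3.10 for Mmp13 (1.82 to 5.52). In MPP2 colonies it was 1.05 for Mmp12 (1.00 to 1.11) and 1.22 for Mmp13 (0.825 to 1.79).

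The MPP2 ratio over the ST-HSC ratio was 0.450 for Mmp12 (0.413 to 0.490) and 0.392 for Mmp13 (0.207 to 0.741), intervals that cover counting error and not the spread between cultures. No test of that difference is possible with 1 library per group. The shared log2 effect was 0.65 for Mmp12 (limma adjusted p = 0.402) and 0.79 for Mmp13 (0.304). Of the bases that Mmp12 has in exons, 157 overlap exons of Mmp1b on the opposite strand, and 4.25% of its 31-base words occur in other genes. Mmp1b was not analysed here, and the labels do not say whether counting used strand.

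Mmp8, Mmp9 and Mmp25, known from neutrophil granules and membranes, were under 2-fold with 4OHT in both kinds of colony. Mmp8 had 92.9, 143.8, 132.4 and 163 normalized counts, with both 4OHT libraries above both ethanol libraries. Its 4OHT ratio was 1.55 in ST-HSC colonies (1.44 to 1.66) and 1.23 (1.16 to 1.31) in MPP2 colonies, and the shared log2 difference was 0.46 (SE 0.146, limma adjusted p = 0.271). That result passed with a mean-variance trend (adjusted p = 0.0267) and in edgeR (0.0471).

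Mmp25 had 3.89, 4.96, 19.7 and 35.1 normalized counts. The step with 4OHT was clear of counting error in MPP2 colonies, at a ratio of 1.78 (1.53 to 2.08), and not in ST-HSC colonies, at 1.27 (0.882 to 1.84). The MPP2 ratio was 1.40 times the ST-HSC ratio (0.952 to 2.05), so a difference between the cell types was not clear of counting error. With 1 library per group it cannot be tested. Mmp9 had 2.92, 1.94, 23.3 and 35.2, with a ratio of 0.664 (0.394 to 1.10) in ST-HSC colonies from 42 and 27 reads, and 1.51 (1.31 to 1.75) in MPP2 colonies. The shared 4OHT difference was 0.56 for Mmp25 (limma adjusted p = 0.256) and 0.05 for Mmp9 (0.957).

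The neutrophil markers gave the following values beside these. Of 11 tested, 1 was above 0 with 4OHT in ST-HSC and 5 in MPP2 colonies, against 5605 and 5652 of all 11370 tested genes. The marker medians were -0.37 and -0.03 log2. Retnlg had 1.25, 0.862, 4.47 and 2.49 normalized counts. Camp, an antimicrobial granule peptide gene, had 450, 240.4, 723 and 748 normalized counts, and the calcium-binding gene S100a9, the most abundant marker of the list, had 8873, 6315, 12800 and 12260.

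Mmp19 had 46.6, 46.0, 25.4 and 40.6 normalized counts, and MPP2 ethanol was the low library. The 4OHT ratio was 0.987 in ST-HSC colonies (0.884 to 1.10) and 1.60 (1.39 to 1.84) in MPP2 colonies, with a shared log2 difference of 0.32 (limma adjusted p = 0.542). Exons of Tmem198b on the opposite strand overlap 789 of its exon bases. Tmem198b stood at 10.4, 9.06, 9.31 and 7.38, and its part in the Mmp19 values was not tested.

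Of the inhibitors, Timp2 was level or nearly so with 4OHT and Timp1 had too few reads to tell. Timp2 had 14.4, 15.5, 48.2 and 56.6 normalized counts, a 4OHT ratio of 1.08 in ST-HSC colonies (0.887 to 1.31) and 1.18 (1.06 to 1.31) in MPP2 colonies, and a shared log2 difference of 0.17 (limma adjusted p = 0.630). Timp1, a secreted inhibitor that binds Mmp9, was read only 2, 6, 1 and 3 times. Its ratios, 3.10 (0.554 to 31.4) and 3.34 (0.268 to 175), cannot be told from 1 at this depth. The summed level per kilobase of the 8 MMPs was 67.1, 111.3, 108.0 and 144.4, and that of Timp1 and Timp2 was 3.85, 4.47, 12.4 and 14.8. The MMP sum was thus 17.4, 24.9, 8.68 and 9.75 times the TIMP sum, higher in ST-HSC than in MPP2 colonies under both treatments. With the further inhibitor gene Timp3, described below, added to the TIMP sum, it was 17.19, 24.9, 6.895 and 8.349 times that sum.

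**Figure D2:**
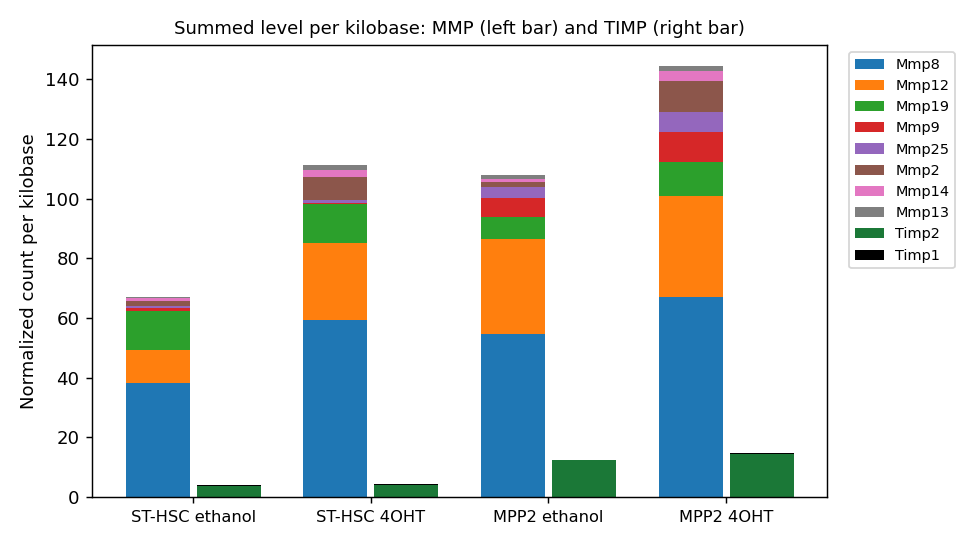
Summed normalized counts per kilobase of merged exons (y axis) in the 4 libraries (x axis), with the MMPs stacked in the left bar and Timp2 and Timp1 in the right bar of each pair. The MMP stack runs from 67.1 in ST-HSC ethanol to 144.4 in MPP2 4OHT and is mostly Mmp8 and Mmp12, while Timp2 is higher in the MPP2 libraries.

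Counted over the 9 members that passed the filter, 7 had a log2 4OHT difference above 0 in both kinds of colony, against 30.4% of all tested genes. At least 2-fold higher were 4 of 9 in ST-HSC colonies (2.10% of all genes) and 2 of 9 in MPP2 colonies (1.32%). The 2 past 2-fold in both were Mmp2 and Mmp14 (0.756% of all genes). At least 2-fold lower were 0 of 9 in either, against 0.545% and 1.70%. The median log2 difference of the members was 0.63 and 0.59, and that of all tested genes was -0.0037 and -0.0024. No member was 2-fold lower in both kinds of colony, against 0.211%.

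**Figure D3:**
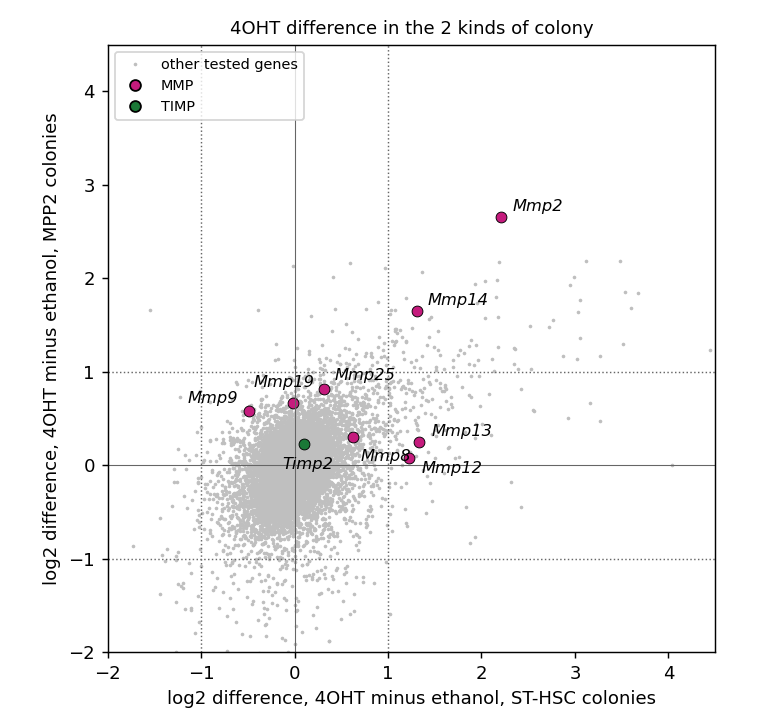
Log2 difference of 4OHT minus ethanol in ST-HSC colonies (x axis) and in MPP2 colonies (y axis), with MMP genes in pink, TIMP genes in green, other tested genes in grey and dotted lines at 2-fold. Mmp2 and Mmp14 lie past 2-fold on both axes and Mmp12 and Mmp13 on the x axis alone, and 38 genes fall outside the axes.

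Between the kinds of colony, Mmp9, Mmp25 and Timp2 were higher in MPP2 than in ST-HSC colonies under both treatments. Mmp9 was 7.98-fold higher with ethanol (counting interval 5.77 to 11.3) and 18.2-fold higher with 4OHT (12.3 to 27.9). Mmp25 was 5.06-fold (3.78 to 6.87) and 7.07-fold higher (5.47 to 9.25), and Timp2 3.35-fold (2.86 to 3.93) and 3.65-fold (3.13 to 4.27). Mmp2 and Mmp14 were level between the kinds of colony with ethanol, at ratios of 1.01 (0.720 to 1.42) and 0.988 (0.718 to 1.36).

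In limma the shared cell type difference was 3.34 log2 for Mmp9 (SE 0.272, adjusted p = 0.00622), 2.45 for Mmp25 (SE 0.170, adjusted p = 0.00404) and 1.77 for Timp2 (SE 0.129, adjusted p = 0.00450), each higher in 2 of 2 pairs. Of all tested genes 9.88% were called higher in MPP2 and 5.31% lower, and of the 9 members 3 and 0. At an unadjusted p under 0.05, 5 members were higher and 1, Mmp19, was lower, where 37.7% of all genes passed in either direction. DESeq2 called 3 higher and 0 lower, against 994 and 453 of all tested genes. For edgeR these were 5 and 1, against 1873 and 1589. Mmp9, Mmp25 and Timp2 passed in all 9 alternatives run.

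Mmp12 and Mmp13 were 2.90-fold (2.71 to 3.11) and 2.95-fold (1.72 to 5.27) higher in MPP2 colonies with ethanol, but 1.31-fold (1.24 to 1.38) and 1.16-fold (0.789 to 1.69) with 4OHT. Past 2-fold were 5 of 9 members with ethanol (6.27% of all genes) and 3 of 9 with 4OHT (5.39%), and none was 2-fold lower (0.862% and 1.71%). Mmp9, Mmp25 and Timp2 were past 2-fold in both (3.51%). The 4 libraries behind these ratios are those of the 4OHT comparison, so both views share their data. Mmp8 had ratios of 1.43 (1.33 to 1.53) and 1.13 (1.07 to 1.21), and Mmp19 had 0.545 (0.478 to 0.621) and 0.883 (0.784 to 0.993).

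Markers of several cell types moved with this comparison. Called higher in MPP2 colonies by limma were 10 of 11 mast cell and basophil markers, 7 of 11 neutrophil, 4 of 11 macrophage, 4 of 8 erythroid and 2 of 4 stromal and endothelial markers. Called lower were 2 neutrophil markers, Mpo and Elane, enzymes of early granules, and none in the other lists. Of all tested genes, 9.88% were called higher and 5.31% lower. Summed mast cell markers stood at 236.5, 180.7, 1781 and 658 normalized counts, higher in MPP2 colonies and lower with 4OHT in both kinds of colony. That sum includes Kit, at 76.4, 92.9, 84.1 and 90.5. The part of any of these cell types in the MMP differences was not tested.

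**Figure D4:**
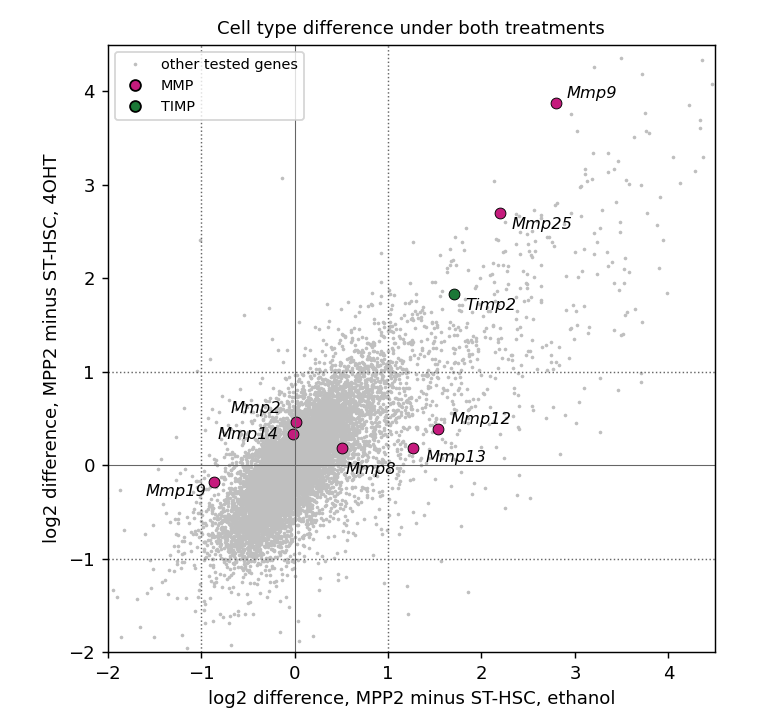
Log2 difference of MPP2 minus ST-HSC colonies with ethanol (x axis) and with 4OHT (y axis), with MMP genes in pink, TIMP genes in green, other tested genes in grey and dotted lines at 2-fold. Mmp9, Mmp25 and Timp2 lie past 2-fold on both axes, Mmp12 and Mmp13 on the x axis alone, and 27 genes fall outside the axes.

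By pattern over the 4 libraries, measured as the distance between centred log2 values, the members with the widest range were Mmp9, Mmp25 and Mmp2. Nearest to Mmp9 were Selp, the P-selectin of platelets and endothelium (distance 0.657), Mfsd2b, a lipid exporter of red cells and platelets (0.712), and Cndp2, a peptidase (0.747). Nearest to Mmp25 were Pla2g7, a secreted phospholipase (0.326), Parvb, an actin-binding adhesion protein (0.531), and the kinase gene Src (0.556). Mmp2 had as its nearest Zmat3, a p53 target (0.482), Angptl2, a secreted angiopoietin-like protein (0.692), and Phlda3, a p53 target (0.744). Zmat3 had 10.5, 49.0, 12.99 and 52.7 normalized counts and was among the 5 genes called higher with 4OHT in limma. Mmp14 was not among the 3 nearest to Mmp2.

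Of 17 further MMP and TIMP genes, 9 had values and 2 passed the filter, Timp3 and Mmp28. Timp3, an inhibitor bound to the matrix, had 6, 0, 363 and 253 reads, or 26.2 and 20.3 normalized counts in the MPP2 libraries. It was 62.8-fold higher in MPP2 than in ST-HSC colonies with ethanol (28.6 to 172) and at least 76.0-fold higher with 4OHT, the lower limit of the exact interval for 253 against 0 reads. Its shared cell type difference passed in limma (adjusted p = 0.00104), and its 4OHT difference did not (0.234). Exons of Syn3 on the opposite strand overlap 1733 of its exon bases, and Syn3 had 3.27, 2.59, 3.82 and 3.77. Mmp28, a secreted protease of skin and macrophages, had 1.81, 1.51, 0.649 and 1.28.

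Genes that activate, hold or clear MMPs had small median differences with 4OHT, while single genes differed more. In the list of activation and docking genes, 10 of 13 passed the filter. Their median log2 differences were -0.04 in ST-HSC and 0.09 in MPP2 colonies. At least 2-fold higher were 0 and 1 of them, against 2.10% and 1.32% of all genes. That 1 was Lrp1, the scavenging receptor that takes up MMPs and TIMPs, at 157.9, 268, 169.6 and 391 normalized counts (shared log2 0.98, limma adjusted p = 0.106). Cd44, a hyaluronan receptor that can dock Mmp9 and was the most abundant of the list, had 359, 424, 613 and 637. The integrin gene Itgb3 had 67.2, 43.2, 238 and 215. Its 4OHT ratio was 0.643 in ST-HSC colonies (0.580 to 0.713) and 0.904 in MPP2 colonies (0.859 to 0.952). Called higher in MPP2 colonies were 4 of the 10, Cd44, Itgb3, Reck (a membrane-bound MMP inhibitor) and Furin (the convertase that activates Mmp14), and 0 were lower. For this list and the lists below, the shares of all tested genes called by cell type were 9.88% higher and 5.31% lower.

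Plasminogen activation genes, 10 of 11 tested, had medians of 0.06 and 0.04 log2 with 4OHT. In MPP2 colonies 1 was at least 2-fold higher, Serpinb8 (1.11, 1.44, 1.15 and 3.13 normalized counts), and 1 was at least 2-fold lower. The shares of all genes were 1.32% and 1.70%. Anxa2, which gathers plasminogen at the cell surface, was level with 4OHT at 286, 286, 412 and 403. In MPP2 colonies 4 of the 10 were called higher, among them Plaur, the urokinase receptor, and 0 lower. ADAM and ADAMTS proteases, 8 of 14 tested, had medians of 0.22 and 0.15, with Adam15 at 139, 165, 119 and 195, Adam10, a major sheddase, at 213, 206, 240.5 and 200.2, and Adamts1 at 4.03, 4.53, 1.08 and 2.73. By cell type 1 of these was called higher, Adam8, and 1 lower, Adamts1.

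Cathepsins and cystatins of the matrix-degrading list, 10 of 10 tested, had medians of 0.62 log2 in ST-HSC and 0.41 in MPP2 colonies with 4OHT. Above 0 were 10 and 9 of them, against 5605 and 5652 of all 11370 tested genes. Past 2-fold were Ctss (43.7, 110.0, 94.2 and 123 normalized counts) and Ctsk (1.18, 4.60, 10.5 and 9.87), both in ST-HSC colonies alone. There 2.10% of all genes were at least 2-fold higher. For Ctss, ST-HSC ethanol alone was low, as it was for Mmp12 and Mmp13. For Ctsk, ST-HSC 4OHT also lay below both MPP2 libraries. Ctsd, the aspartic protease of lysosomes, was the most abundant at 1060, 1473, 2184 and 2656. Called higher in MPP2 colonies were Ctsd and Ctsk. No 4OHT call was made by limma in these lists.

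Neutrophil serine proteases and granule partners, 8 of 8 tested, had medians of -0.11 and 0.07 log2 with 4OHT and 0 past 2-fold. Elane, neutrophil elastase, had 1673, 1272, 794 and 861 normalized counts, and Serpinb1a, which inhibits it, had 483, 407, 528 and 453. In MPP2 colonies Elane, Prtn3, Ctsg and Mpo were called lower and Lcn2, a neutrophil granule gene, higher. Matrix substrates, 8 of 17 tested, had medians of 0.56 and 0.72 with 4OHT. Nid2, of basement membrane, had 5.22, 8.12, 1.88 and 10.1, Col5a1, a fibrillar collagen, had 3.55, 6.04, 5.84 and 11.8, and Spp1 (osteopontin), cut by several MMPs, had 597, 792, 822 and 854. By cell type 2 substrates were called higher and 2 lower.

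The marker lists gave these values with 4OHT. Macrophage markers had medians of 0.95 and 0.71 log2, led by Gpnmb (64.7, 293, 243 and 731 normalized counts) and the fatty acid receptor gene Cd36 (0.765, 6.90, 5.12 and 7.94). Mast cell and basophil markers had medians of -0.81 and -1.49, with Ms4a2, a chain of the IgE receptor, at 7.44, 2.80, 41.0 and 9.87, Il1rl1, the IL-33 receptor, at 11.3, 5.46, 160.3 and 38.3, and the basophil protease Mcpt8 at 45.8, 21.6, 428 and 123. Stromal and endothelial markers had medians of -0.44 and -0.01 over 4 genes, with the receptors Kdr at 1.53, 5.89, 4.83 and 5.62 and Pdgfrb at 1.39, 0.647, 1.37 and 1.28. Erythroid markers had medians of 0.00 and -2.92 over 8 genes, with the haemoglobin gene Hba-a1 at 0.209, 0.144, 45.96 and 2.49. Hba-a2 and Slc4a1, the red cell anion exchanger, were read in MPP2 ethanol alone, at 17.2 and 14.1. Limma called 0 of these markers with 4OHT.

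**Figure D5:**
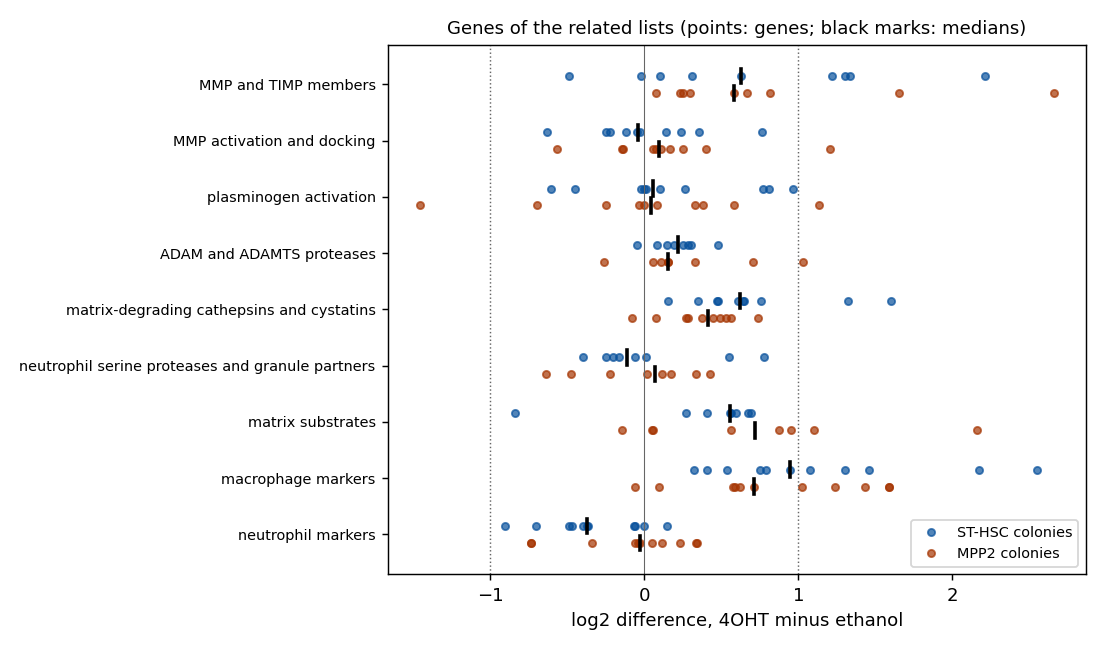
Log2 difference of 4OHT minus ethanol (x axis) for the tested genes of 9 lists (y axis), in ST-HSC colonies (blue) and MPP2 colonies (brown), with 1 point per gene, black marks at medians and dotted lines at 2-fold. The members, the cathepsins, the matrix substrates and the macrophage markers have medians above 0.4 in both kinds of colony, and the medians of the other lists lie between -0.37 and 0.22.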

How the data were processed

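RNA-seq was read from a table of 4 columns, 1 library each. The values, called normalized counts by the authors, form a signal with no stated unit. All 57292 values lie within 1e-06 of a whole multiple of the smallest value of their column, so whole reads were recovered from this deposited signal (100% of values). Trimmomatic 0.36, Bowtie2, RSEM, edgeR and mm10 are named per the submitters' processing notes, with no role or order. Libraries were rRNA-depleted and directional, from 200 ng RNA, per the labels' protocols.

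Members and lists were chosen with earlier results of these data known. The 11370 genes (79.4%) averaging 1 normalized count or more were fitted with limma 3.58.1 on log2(normalized count + 0.5), with cell type and treatment as terms, 3 coefficients over 4 libraries and 1 residual degree of freedom. Adjusted p is Benjamini-Hochberg, threshold 0.05. A pair of libraries has no replicate check. The residual is how far the cell types differ in their 4OHT difference, and not a spread between replicates. Standard errors and p-values rest on it, moderated over the fitted genes, and it may be technical as well as biological. Ratios are of normalized counts, with exact conditional binomial 95% intervals on reads. These cover counting error only, as do intervals on single levels (exact Poisson). The interval of a ratio of ratios uses the delta method on the log scale.

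Alternatives were added constants of 0.1 and 1, no filter, a mean of at least 5, DESeq2 1.42.0 size factors, a limma trend, removal of the GC trend in 20 bins, edgeR 4.0.16 quasi-likelihood and DESeq2 on recovered reads, and longest transcripts as lengths. On recovered reads edgeR called 281 genes higher and 211 lower with 4OHT. Lengths and coordinates are from GENCODE M21 on GRCm38, the assembly of mm10, and 13739 symbols matched. The limma and edgeR fits were also run on simulated reads with known differences, and the outcome is not given here. Named were all members, in each other list the 2 genes with the largest mean 4OHT difference and the most abundant gene, and the 3 genes nearest in pattern, among genes with a mean of at least 5, to the 3 members of widest range. A gene that this rule names is not reported here. Other genes were named after their values were seen. Overlapping antisense genes cannot be told apart where counting ignores strand. R was 4.3.3 and Python 3.11.15, with scipy 1.17.1 for intervals, pandas 2.3.3 and numpy 2.4.6 for tables and matplotlib 3.10.9 for plots.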

Additional observations from a re-analysis of the deposited data

Results flagged for a closer look

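The 4OHT difference of Mmp9 pointed in opposite directions, with a ratio of 0.664 in ST-HSC colonies (counting interval 0.394 to 1.10) against 1.51 in MPP2 colonies (1.31 to 1.75), so the MPP2 ratio was 2.28 times the ST-HSC ratio (1.37 to 3.77). That of Mmp19 also did, with ratios of 0.987 (0.884 to 1.10) and 1.60 (1.39 to 1.84), or 1.62 times (1.36 to 1.93). Between the kinds of colony, Mmp14 pointed in opposite directions with ethanol and with 4OHT, at ratios of 0.988 (0.718 to 1.36) and 1.27 (1.05 to 1.53), or 1.28 times (0.899 to 1.84). In all 3 the lower ratio had an interval that spans 1, and the differences were not tested, since each group has 1 library.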

How the results depend on the processing

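The count of genes called for the shared 4OHT effect depended on the processing. Against 5 higher and 1 lower, an added constant of 0.1, no filter, DESeq2 size factors and removal of the GC trend each gave 0 and 0, a constant of 1 gave 73 and 19, a mean of at least 5 gave 162 and 68, a limma trend 337 and 261, edgeR 281 and 211, and DESeq2 114 and 40. Members called higher were 0 in the first 4 of these settings, 2 with a constant of 1, with a mean of at least 5 and in DESeq2, and 3 with a trend and in edgeR, against 1. The cause was not tested. The shared 4OHT difference of Mmp9 turned from 0.05 to -0.065 with the GC trend removed, with the call missed in both. For cell type, against 1123 higher and 604 lower, a constant of 0.1 gave 674 and 178, no filter 490 and 69, a trend 1899 and 1862, removal of the GC trend 641 and 149, and edgeR 1873 and 1589. The lower count was 964 with a constant of 1, 1395 with a mean of at least 5 and 394 with DESeq2 size factors. Members called were 5 higher and 1 lower with a trend and in edgeR, against 3 and 0. The counts of members past 2-fold with 4OHT in ST-HSC and MPP2 colonies were the same under the 4 alternatives tried. In MPP2 colonies the log2 4OHT difference of Mmp8 was 0.48 and that of Mmp12 0.35 with the GC trend removed, against 0.30 and 0.07. Mmp13 and Timp1 had no value with a mean of at least 5. No paired analysis was possible because the labels give no replicate numbers that groups could share, while the fit with a cell type term already sets the libraries of each cell type against each other. No library could be left out, since each group has 1. Timp1, with at most 6 reads per library, is limited by depth.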
